A study of Mus musculus with 12 samples.

Results

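Mxd1 and the genes of the MYC-MAX network were followed in cultured mouse hepatic progenitor cells treated with vehicle, with IL-4 or with IL-13. The 8 genes were Mxd1, Mxd3, Mxd4, Mxi1, Mnt, Max, Myc and Mlx. They were taken by name, with every probe that the platform annotation assigns to them on an Illumina mouse expression beadchip, which gave 15 of the 45281 probes. A probe was tested if its detection p, set by the chip's negative controls, was under 0.05 on at least 4 of the 12 arrays. Of the 15 probes 11 passed this filter, at least 1 for each gene. The 4 that failed, 2 of Mxd1 and 1 each of Myc and Mlx, were detected on 0 arrays. The group was chosen by name, but with the log2 differences of Mxd1 between cytokine and control on these same arrays already known. Its differences between cytokine and control are therefore given as a description without a p-value, for all 8 genes. Where the number of network genes or probes past the threshold is printed, it stands beside the share of all genes or probes and nothing is read from it. The difference between the cytokines, and the genes around the network, were tested. The lists of those genes were also chosen with earlier results of these data known, which limits what their p-values and counts can show.

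The cells carried the sort profile DAPI-CD45-CD31-TER119-EpCAM+CD24+CD133+, that of epithelial precursors of the liver. In all groups they were grown with IL-6, HGF and EGF (10 ng/mL each), glucose (14 mM), dexamethasone (100 nM) and serum (10%). After 24 hours without serum, 4 samples each received vehicle alone (control), recombinant IL-4 or recombinant IL-13, both at 50 ng/mL. The vehicle was recorded as 0.1% BSA for all 3 groups. The sources used here do not give mouse strain, age, the number of animals or the time with cytokine. Nothing states that replicates were separate cultures or animals, so that the spread between them may be technical.

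The proteins of this network carry a basic helix-loop-helix domain with a leucine zipper and bind DNA as pairs. MAX is the shared partner. MYC with MAX binds E-boxes, of which CACGTG is the standard form, and activates genes of growth and ribosome production. The MXD proteins, MXI1 and MNT also pair with MAX, but they bring the SIN3 corepressor and histone deacetylases to the same sites. MLX is a second partner, which joins some MXD proteins, MNT, and the glucose-sensing factors MLXIP and MLXIPL. In many lineages Mxd1 is switched on as cells leave the cycle and differentiate, while in liver Myc is known for its induction during regeneration.

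The regulatory sequence in front of the responding gene is shown first, because no probe sequence or protein was at hand. RefSeq promoter entries (GRCm38.p6, from 250 bases before to 50 after a gene start) matched 7 of the 8 genes by symbol, with 9 entries. The 250 bases before the start of Mxd1 lie at chr6:86669160-86669409 on the minus strand, with CCAAT on either strand in capitals.
Mxd1: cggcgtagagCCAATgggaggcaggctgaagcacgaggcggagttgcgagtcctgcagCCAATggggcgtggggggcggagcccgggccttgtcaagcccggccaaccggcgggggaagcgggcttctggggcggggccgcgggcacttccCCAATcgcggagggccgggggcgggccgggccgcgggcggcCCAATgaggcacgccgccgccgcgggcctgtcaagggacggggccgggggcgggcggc
This stretch is 78.4% G and C. It holds CCAAT 4 times, a motif noticed only on reading the sequence, which occurs at least once in 33.8% of the 32851 promoter entries over the same window and at least 4 times in 0.798%. The 300-base Mxd1 entry holds neither CACGTG nor the form that STAT6 is known to bind, TTC followed after any 4 bases by GAA. Both motifs read the same on either strand. CACGTG occurs in 7.15% of all entries and the STAT6 form in 6.95%. An absent motif says only that these letters are not in this window.

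The network's own promoters differ in the E-box. CACGTG stands once each in the entries of Mxd4, Mnt, Max and Mlx and in none of those of Mxd1, Mxd3 and Mxi1. The following 30-base stretches show it in capitals, at chr5:34187912-34187941 (minus strand), chr11:74830789-74830818 (plus), chr12:76962234-76962263 (minus) and chr11:101087238-101087267 (plus).
Mxd4: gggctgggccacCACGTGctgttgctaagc
Mnt: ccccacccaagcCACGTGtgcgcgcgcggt
Max: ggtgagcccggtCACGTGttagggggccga
Mlx: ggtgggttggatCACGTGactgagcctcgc
Among the 8527 tested genes with a promoter entry, 11.8% hold CACGTG in at least 1 of them. A match describes these letters and does not show a bound site.

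Between 18469 and 19869 probes were detected on an array, and the lowest raw intensity of a detected probe lay between 102 and 110. Within a group the arrays had pairwise correlations of 0.993 to 0.997 over genes, and no pair was identical (0 pairs). Of the progenitor and duct markers Krt19, Krt7, Sox9 and Cd24a were detected on all arrays and Prom1, which encodes CD133, on 1 control, 1 IL-4 and 3 IL-13 arrays. The probe of Epcam was detected on 0 arrays although the cells had been sorted for it. Both cytokines were compared with the same 4 control arrays in one limma fit over 10453 genes, each represented by its brightest probe. At a Benjamini-Hochberg adjusted p under 0.05, 363 genes changed with IL-4 (3.47%), 225 up (2.15%) and 138 down (1.32%). The number for IL-13 was 599 (5.73%), 366 up (3.5%) and 233 down (2.23%). In the submitters' own processed values, which are scaled by the median only, the split was 120 up and 294 down with IL-4 and 203 up and 406 down with IL-13. The direction of Mxd1 was the same there.

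Mxd1, which encodes the founding MXD repressor, was higher with both cytokines. Its normalised log2 signal was 5.41, 5.56, 5.46 and 5.17 on the 4 control arrays. On the IL-4 arrays it was 7.04, 6.73, 6.87 and 7.05. On the IL-13 arrays it was 7.03, 7.10, 7.00 and 6.89. Every treated array thus lay above every control array, while the IL-4 and IL-13 arrays overlapped. The means were 5.40 ± 0.17 (SD, n = 4) in control, 6.92 ± 0.15 with IL-4 and 7.00 ± 0.08 under IL-13. The log2 difference from control was 1.52 ± 0.09 (SE) with IL-4, a 2.88-fold higher signal, and 1.60 ± 0.09 with IL-13, or 3.04-fold. Under the reported processing 18 genes had a larger positive difference with IL-4 and 17 with IL-13, out of 10453. Since Mxd1 was followed with these differences already known, nothing is read from this rank.

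**Figure D1:**
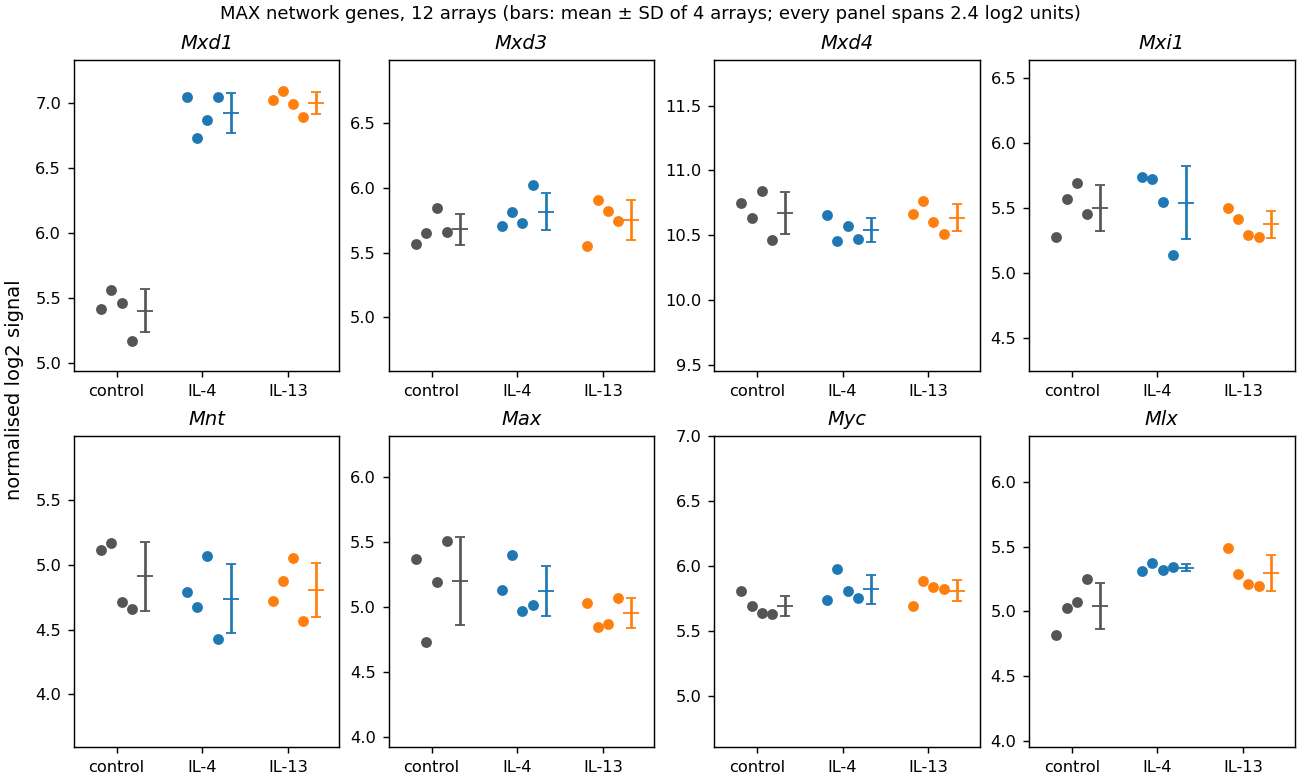
Normalised log2 signal of the brightest probe of each of the 8 genes on the 12 arrays (points), by group on the horizontal axis, with the mean and SD of 4 arrays beside the points. The Mxd1 points lie between 5.17 and 5.56 in control and between 6.73 and 7.10 with a cytokine, whereas no other panel shows a shift of comparable size.

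In raw intensity, the same Mxd1 probe read 113 to 138 on control arrays, 183 to 217 with IL-4 and 193 to 226 with IL-13. The control level thus stood not far above the lowest detected intensities, and the size of the difference depended on how background was treated. Without background correction it was 0.71 with IL-4 and 0.76 with IL-13 on the log2 scale, and in the submitters' values 0.67 and 0.75. With a smaller offset in the correction (1 in place of 16) it was 1.97 and 2.06. Within chip 1 the log2 differences were 1.40 (IL-4) and 1.58 (IL-13), and within chip 2 they were 1.65 and 1.63. Each chip held 2 arrays of every group. Each group kept the same positions on both chips, and the effects of position and treatment cannot be told apart.

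**Figure D2:**
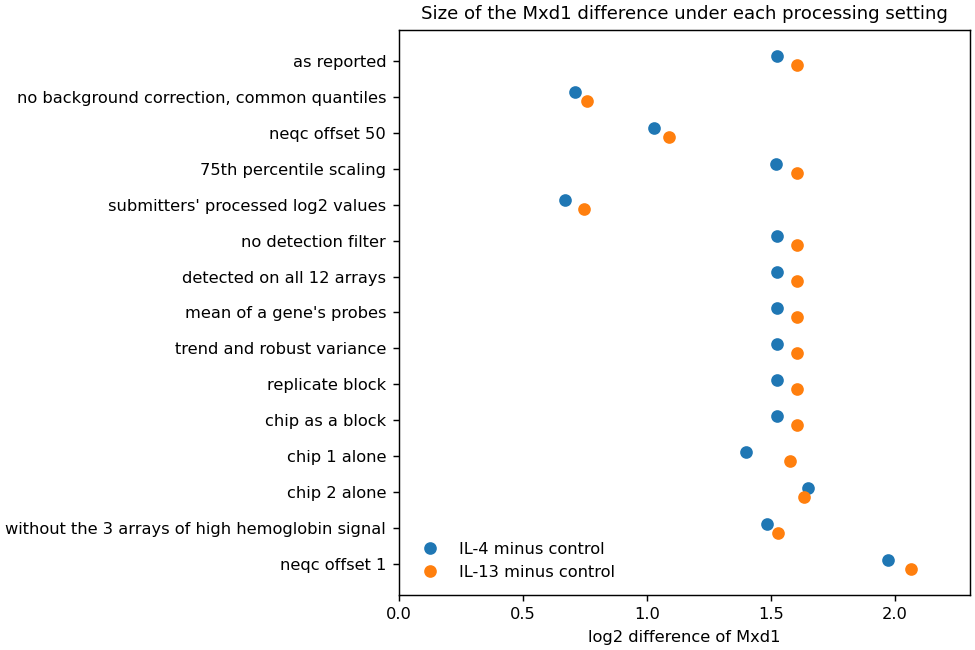
Log2 difference of Mxd1 between cytokine and control (horizontal axis, starting at 0) under the reported processing and the alternatives on the vertical axis. The alternatives that leave out a single array are not drawn. Points lie between 0.67 and 2.06, with the lowest values where the background was not corrected and the highest with an offset of 1.

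The 2 further Mxd1 probes gave no signal above the negative controls in any group. Their mean raw intensities were 101, 98.0 and 100.0 for one, and 96.1, 94.6 and 97.9 for the other, in control, IL-4 and IL-13. The response of Mxd1 therefore rests on 1 probe of 3. The sources used here do not say which parts of the transcript the probes bind, and the cause of their disagreement was not tested.

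Markers of the cells themselves and of other cells were set beside the Mxd1 values. Krt7, a duct keratin gene, fell by 0.36 on the log2 scale with IL-4 and by 0.44 with IL-13 (adjusted p from limma = 0.00833 and 0.00111), while Krt19, Sox9, Cd24a and Prom1 did not pass. The mean log2 signal of 3 hemoglobin genes was high on IL-4 4 (8.95), IL-4 2 (6.77), control 4 (5.95) and IL-4 1 (5.36) and lay between 4.40 and 4.80 on the remaining arrays, all 4 IL-13 arrays among them. Without control 4, IL-4 2 and IL-4 4 the Mxd1 difference was 1.48 for IL-4 and 1.53 for IL-13. The summed signal of the measurable leukocyte markers, 2 of 4 (Cd14 and Csf1r), spanned 9.79 to 9.88 on the log2 scale in control, 9.97 to 10.09 with IL-4 and 9.95 to 10.11 with IL-13. Cd14 had log2 differences of 0.22 with IL-4 and 0.21 with IL-13 and Csf1r -0.004 and 0.10, and neither gene passed. Adgre1 was detected on 0 arrays and Ptprc, the gene of CD45, on 1. The stellate cell and fibroblast sum, from 3 of 5 markers (Des, Pdgfra and Acta2), spanned 8.11 to 8.95 in control, 7.12 to 8.05 with IL-4 and 6.71 to 7.45 with IL-13, with Pdgfrb and Col1a1 at 0 arrays. Acta2, the smooth muscle actin gene, fell by 2.07 on the log2 scale with IL-13 (adjusted p from limma = 6.54e-05). With IL-4 its difference was -0.85 and did not pass (0.109). Des had differences of 0.05 with IL-4 and 0.16 with IL-13 and Pdgfra 0.04 and 0.05, and neither passed. The lower sum thus came from Acta2 alone. The hepatocyte sum, from 2 of 3 markers (Ttr and Apoa1), spanned 7.15 to 7.63, 7.22 to 8.12 and 7.38 to 8.37, with Alb at 0 arrays. Apoa1, an apolipoprotein gene, rose by 0.76 with IL-4 and 1.23 with IL-13 (adjusted p from limma = 0.0375 and 0.000538). Ttr had differences of 0.27 and 0.28 and did not pass. The endothelial sum, from 1 of 3 markers (Kdr), spanned 4.44 to 4.81, 4.39 to 4.70 and 4.37 to 4.57, with Pecam1 at 0 arrays. The part of the duct, leukocyte, fibroblast and hepatocyte markers in the Mxd1 difference was not tested, and in bulk RNA fewer cells of a type and less RNA per cell cannot be told apart.

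IL-4 and IL-13, given at the same dose, had Mxd1 signals that differed by 0.08 ± 0.09 (SE; IL-13 minus IL-4), with a 95% interval of -0.12 to 0.28. The adjusted p from limma was 0.836. The interval leaves room for a modest difference in either direction. For the other 7 genes the differences between the cytokines ran from -0.17 (Max, adjusted p = 0.746) to 0.09 (Mxd4, adjusted p = 0.787), and 0 of 8 genes passed. Over all genes 0 passed in limma, with 852 at an unadjusted p under 0.05.

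Of the 8 network genes only Mxd1 was among the genes called against control, with either cytokine, beside 3.47% of all genes with IL-4 and 5.73% with IL-13. As the group was put together with these values in view, nothing is read from that count. Treated arrays lay wholly above control for Mxd1 with both cytokines and for Mlx with IL-4. Over all genes this held for 4.32% with IL-4 and 6.03% with IL-13, and the opposite, all treated arrays below control, for 4.11% and 4.92%.

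**Figure D3:**
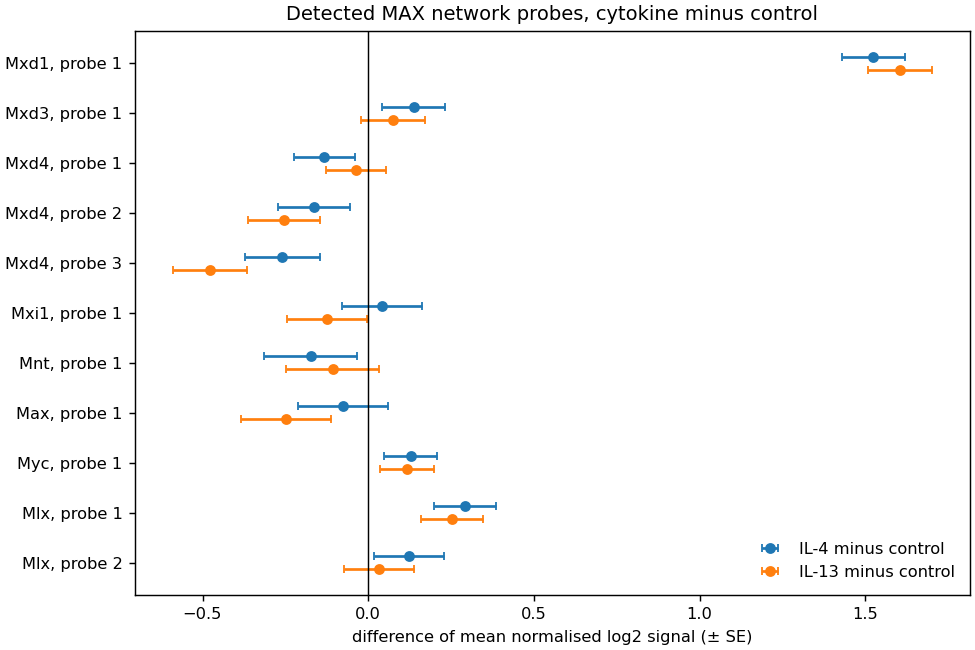
Difference of mean normalised log2 signal between cytokine and control, with the standard error of the fit of all probes, for the 11 network probes that passed the detection filter (vertical axis, numbered from the brightest of each gene). The Mxd1 probe stands at 1.52 and 1.60, and the 10 other probes lie between -0.48 and 0.29.

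Among the other repressors, Mxd3, whose product is known from mouse cells as the MXD protein of S phase, had signals of 5.57 to 5.84 in control, 5.71 to 6.02 with IL-4 and 5.55 to 5.90 with IL-13. The groups overlapped, and the log2 differences were 0.14 ± 0.09 (SE) and 0.07 ± 0.09. Mxi1, a repressor of the same family, lay at 5.27 to 5.69, 5.14 to 5.74 and 5.28 to 5.50, with differences of 0.04 ± 0.12 and -0.13 ± 0.12. Its difference with IL-4 had opposite signs on the chips, 0.31 on chip 1 and -0.23 on chip 2. Mnt, the broadly expressed repressor that competes with MYC for MAX, was detected on 11 of 12 arrays, all but 1 IL-4 array. It spanned 4.66 to 5.17 in control, 4.42 to 5.07 with IL-4 and 4.57 to 5.05 with IL-13, with differences of -0.17 ± 0.14 and -0.11 ± 0.14, negative on chip 1 (-0.41 and -0.34) and positive on chip 2 (0.06 and 0.13).

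Mxd4, a MAX-binding repressor known from differentiating cells, had 3 probes, and they did not tell the same story. The brightest read 10.75, 10.63, 10.84 and 10.46 in control. It read 10.66, 10.46, 10.57 and 10.47 with IL-4 and 10.67, 10.76, 10.60 and 10.51 with IL-13. These groups overlapped, with log2 differences of -0.13 ± 0.09 (SE) and -0.04 ± 0.09. The platform annotation gives this probe the gene without a transcript accession, unlike the other 2. The second probe, with a mean of 7.70, had differences of -0.16 ± 0.11 and -0.25 ± 0.11, again with overlap.

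Over all genes, each by its brightest probe, the IL-13 arrays all lay below the control arrays for 4.92%. Among the Mxd4 probes the dimmest alone did so. It read 6.99, 6.55, 6.74 and 6.96 in control, 6.42, 6.77, 6.65 and 6.37 with IL-4 and 6.44, 6.18, 6.25 and 6.48 with IL-13. Its differences were -0.26 ± 0.11 (SE) with IL-4 and -0.48 ± 0.11 with IL-13. In the fit of all 16680 probes this one and that of Mxd1 were the 2 of 11 network probes called with IL-13, where 3.91% of all probes were, and with IL-4 the Mxd1 probe alone was called, beside 2.5%. With the mean of the 3 probes in place of the brightest, the difference of Mxd4 with IL-13 was -0.26. All 3 probes had a lower mean with either cytokine than in control, by sizes that differed between probes.

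Max, the shared partner, was dim in every group. Its signal was 5.37, 4.73, 5.19 and 5.51 in control, 5.13, 5.40, 4.97 and 5.01 with IL-4 and 5.03, 4.84, 4.87 and 5.07 with IL-13. The control arrays spanned the whole range of the treated ones. The log2 differences were -0.08 ± 0.13 (SE) with IL-4 and -0.25 ± 0.13 with IL-13, and raw intensities of 110 to 129 placed the probe just above the detection limit. Leaving out single arrays gave differences with IL-13 from -0.40, without control 2, the lowest array, to -0.15. The difference with IL-4 had opposite signs on the chips, 0.21 and -0.36.

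Myc, the activating arm of the network, stayed within a narrow band. Its detected probe read 5.80, 5.69, 5.64 and 5.63 in control, 5.74, 5.98, 5.81 and 5.76 with IL-4 and 5.69, 5.88, 5.84 and 5.82 with IL-13. The groups overlapped, and the log2 differences were 0.13 ± 0.08 (SE) and 0.12 ± 0.08. Both were positive on each chip, at 0.11 and 0.15 with IL-4 and 0.04 and 0.20 with IL-13. The second Myc probe was detected on 0 arrays, with mean raw intensities of 101, 97.7 and 99.5.

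Mlx, the partner of the glucose-sensing arm, read 4.82, 5.03, 5.08 and 5.25 in control on its brightest probe. With IL-4 it read 5.31, 5.37, 5.32 and 5.34, all above control, and with IL-13 5.49, 5.29, 5.21 and 5.19, which overlapped control. The log2 differences were 0.29 ± 0.09 (SE) and 0.25 ± 0.09. On chip 1 they were 0.42 with IL-4 and 0.47 with IL-13, and on chip 2 they were 0.17 and 0.04. Leaving out single arrays gave 0.22 to 0.36 with IL-4 and 0.18 to 0.32 with IL-13, highest without control 4, the highest control array. A second probe of similar brightness had differences of 0.12 ± 0.11 and 0.03 ± 0.11, with opposite signs on the chips (0.35 and -0.10 with IL-4), and the remaining one was detected on 0 arrays. The probes thus differed in size of response, at intensities of 113 to 132 for both detected probes.

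The genes around the network were taken from 11 lists covering its further members, cofactors and targets, in all 213 genes, of which 178 could be tested. As earlier results of these data were known when the lists were chosen, the counts below are a description. With IL-4 6 of the 178 changed (3.37%, beside 3.47% of all genes), 4 up and 2 down. With IL-13 5 changed (2.81%, beside 5.73%), 3 up and 2 down. The median log2 difference over the 178 genes was -0.01 with IL-4 and -0.02 with IL-13, and over all genes it was -0.01 with each. Without control 4, IL-4 2 and IL-4 4, 3 of the 178 changed with each cytokine.

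**Figure D4:**
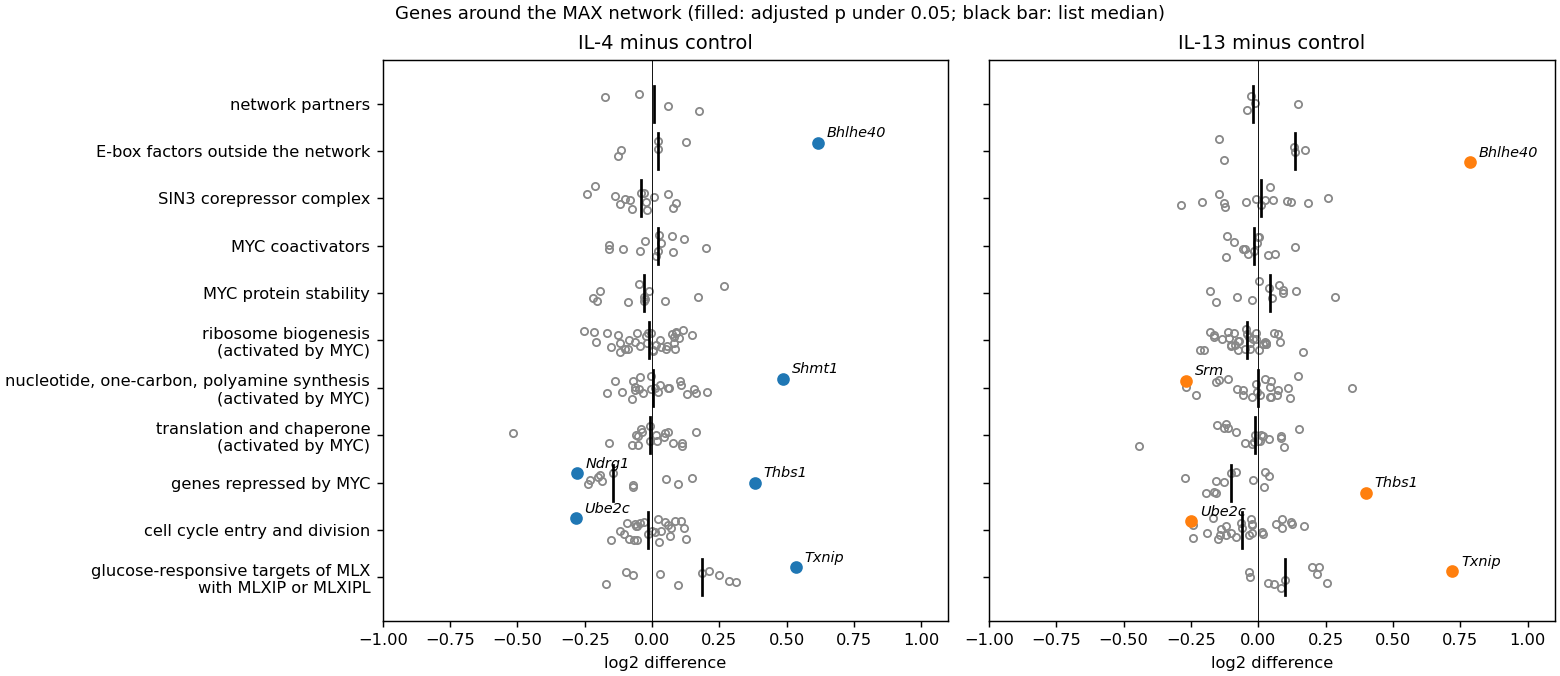
Log2 difference from control of each tested gene (points) in the 11 lists on the vertical axis, with IL-4 on the left and IL-13 on the right. Filled and named points had an adjusted p under 0.05 in limma, and black bars are list medians. Bhlhe40 and Txnip stand farthest to the right with both cytokines, and the medians lie between -0.15 and 0.19.

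The 4 further network members that could be tested, Mycl, Mga, Mlxip and Mlxipl, held 0 changed genes with either cytokine. For so few genes this is near the shares of all genes, 3.47% with IL-4 and 5.73% with IL-13. Mlxip, which encodes the glucose sensor MondoA, had log2 differences of 0.17 ± 0.10 (SE) and 0.15 ± 0.10 (adjusted p from limma 0.470 and 0.487). Mga, the gene of a large MAX partner in a repressor complex, had -0.17 and -0.04 (adjusted p = 0.471 and 0.884). The list medians were 0.01 with IL-4 and -0.02 with IL-13. Mycn did not pass the detection filter.

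Of 6 measured E-box factors outside the network 1 rose with each cytokine, beside 2.15% of all genes with IL-4 and 3.5% with IL-13. This was Bhlhe40, a helix-loop-helix repressor that also binds E-boxes and is known from the circadian clock and from hypoxia. It read 9.07, 8.91, 8.82 and 8.78 in control, 9.55, 9.52, 9.42 and 9.54 with IL-4 and 9.56, 9.88, 9.65 and 9.63 with IL-13. All treated arrays lay above all control arrays. The log2 change was 0.62 ± 0.08 (SE; adjusted p from limma = 0.000188) with IL-4 and 0.78 ± 0.08 (adjusted p = 8.31e-06) with IL-13. The call was kept under all 26 alternatives run for both cytokines. The other 5 genes, Usf1, Usf2, Tfe3, Clock and Arntl, had differences between -0.15 and 0.17 over both cytokines and did not pass, and the list medians were 0.02 and 0.14.

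Of 11 measured glucose-responsive targets of MLX with MLXIP or MLXIPL, 1 rose with each cytokine. Over all genes 2.15% rose with IL-4 and 3.5% with IL-13. It was Txnip, the gene of a thioredoxin-interacting protein that restrains glucose uptake and a standard target of MLXIP. Txnip read 10.33, 10.18, 10.30 and 10.06 in control, 10.93, 10.78, 10.70 and 10.59 with IL-4 and 11.00, 10.96, 11.03 and 10.77 with IL-13. All treated arrays lay above all control arrays, and the 2 cytokines overlapped. Its log2 change was 0.53 ± 0.09 (SE; adjusted p from limma = 0.00147) with IL-4 and 0.72 ± 0.09 (adjusted p = 4.77e-05) with IL-13. A second Txnip probe gave 0.54 and 0.77 and passed with both. With IL-4 the call was lost in the submitters' values and within chip 2 alone, with an adjusted p of at most 0.233. The list medians were 0.19 with IL-4 and 0.10 with IL-13. Of the 11 genes 8 had a positive difference with IL-4 and 9 with IL-13. Over all genes the median difference was -0.01 with each cytokine. The share of positive differences over all genes was not counted, and nothing is read from these signs.

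Genes that MYC activates made up 3 of the lists. Among 34 genes of ribosome biogenesis 0 changed with either cytokine in limma, beside 3.47% and 5.73% of all genes, with medians of -0.01 and -0.04 and log2 differences from -0.25 to 0.15 with IL-4 and from -0.22 to 0.16 with IL-13. The lowest p in this list belonged with IL-4 to Mphosph10, of the processome of the small ribosomal subunit (-0.21; adjusted p from limma = 0.316), and Polr1b, an RNA polymerase I subunit (-0.22; 0.407). With IL-13 it belonged to the box C/D protein gene Nop58 (-0.20; 0.150) and Grwd1 (-0.18; 0.265). CACGTG stood in the promoter entries of 8 of the 29 ribosome genes that have one (27.6%), beside 11.8% of all tested genes.

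In the 24 genes of nucleotide, one-carbon and polyamine synthesis, 1 rose with IL-4 and 1 fell with IL-13. Over all genes 3.47% changed with IL-4 and 5.73% with IL-13. Shmt1, which encodes the cytosolic serine hydroxymethyltransferase, read 6.31 to 6.74 in control, 6.85 to 7.17 with IL-4 and 6.62 to 6.97 with IL-13. Its log2 change with IL-4 was 0.49 ± 0.10 (SE; adjusted p from limma = 0.0103), against a difference of 0.35 with IL-13 (adjusted p = 0.0600). The call with IL-4 was lost without control 4, IL-4 2 and IL-4 4 (adjusted p = 0.206), in the submitters' values and within either chip. A dimmer Shmt1 probe, with differences of 0.36 and 0.17, did not pass. Srm, the spermidine synthase gene and a classic MYC target, read 9.26 to 9.58 in control and 9.07 to 9.22 with IL-13, without overlap, a log2 change of -0.27 ± 0.08 (adjusted p = 0.0441). Leaving out any 1 of 10 of the 12 arrays ended that call (adjusted p up to 0.139); among these it was kept only without control 4 or IL-13 4. An offset of 1 (0.0578) and either chip alone (0.0778 and 0.680) ended it too. The difference with IL-4 was -0.17 (0.319). The 2 further Srm probes had differences of -0.31 and -0.19 with IL-13 and did not pass. The list medians were 0.00 for both cytokines.

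Among 19 translation and chaperone genes 0 changed, beside 3.47% of all genes with IL-4 and 5.73% with IL-13. At a list of this size a count of 0 is near those shares. Eif4e, the gene of the cap-binding translation factor, came nearest, with log2 differences of -0.52 ± 0.14 (SE; adjusted p from limma = 0.0537) and -0.44 ± 0.14 (0.0843). Hspd1, a mitochondrial chaperone gene, had 0.16 (0.366) and 0.01 (0.978), and Farsa, a subunit gene of phenylalanyl-tRNA synthetase, 0.08 (0.767) and 0.15 (0.387). The medians were -0.01 with each cytokine.

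Of 13 genes that MYC is known to repress, Thbs1 rose with both cytokines and Ndrg1 fell with IL-4. Over all genes 3.47% changed with IL-4 and 5.73% with IL-13. Thbs1, the gene of the matrix protein thrombospondin 1, changed by 0.38 ± 0.10 (SE; adjusted p from limma = 0.0363) with IL-4 and 0.40 ± 0.10 (0.0194) with IL-13. Ndrg1, a gene of differentiation and hypoxia, changed by -0.28 ± 0.07 with IL-4 (0.0292), with all IL-4 arrays below control, and had -0.13 with IL-13 (0.357). A second Ndrg1 probe had -0.19 with IL-4 and did not pass. Leaving out single arrays ended the Thbs1 call with IL-4 in 6 of 12 cases (control 1, 3 and 4, IL-4 2, 3 and 4; adjusted p up to 0.126) and with IL-13 in 4 (control 3 and 4, IL-13 1 and 2; up to 0.0679). It ended the Ndrg1 call in 6 (control 1 and 2 and each IL-4 array; up to 0.0959). Without background correction the Thbs1 differences were 0.11 and 0.12 (adjusted p = 0.142 and 0.0870), in the submitters' values 0.10 and 0.12 (0.216 and 0.133), and with an offset of 1 they were 0.68 and 0.71 (0.0548 and 0.0338). Without control 4, IL-4 2 and IL-4 4 the adjusted p was 0.369 and 0.0652 for Thbs1 and 0.189 for Ndrg1 with IL-4, and within either chip neither gene passed. An offset of 50 and the lack of a detection filter also ended the Thbs1 call with IL-4 (0.0820 and 0.0664), and the mean of its probes that of Ndrg1 (0.0534). The list medians were -0.15 and -0.10, and Cdkn1a, Cdkn1b, Cdkn2b and Cdkn2c, which encode inhibitors of the cell cycle kinases, had differences between -0.20 and 0.15.

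Of 27 genes of cell cycle entry and division 1 fell with each cytokine, beside 1.32% of all genes with IL-4 and 2.23% with IL-13. This was Ube2c, which encodes the ubiquitin-conjugating enzyme of the anaphase-promoting complex. It read 6.53 to 6.64 in control, 6.22 to 6.34 with IL-4 and 6.26 to 6.43 with IL-13. The arrays of both cytokines lay below all control arrays and overlapped each other. The log2 change was -0.28 ± 0.07 (SE; adjusted p from limma = 0.0289) with IL-4 and -0.25 ± 0.07 (0.0434) with IL-13. Leaving out single arrays ended the call in 5 of 12 cases with IL-4 (control 2 and 3, IL-4 1, 3 and 4; adjusted p up to 0.0954). With IL-13 it did so in 10 of 12, all but IL-4 2 and IL-13 2 (up to 0.110). Both calls were lost with a trended robust variance (0.0653 and 0.0891), without control 4, IL-4 2 and IL-4 4 (0.0808 and 0.0718) and within either chip (up to 0.470). The IL-13 call was also lost in the submitters' values (0.0628) and with scaling to the 75th percentile (0.0504), and without background correction the changes were -0.15 and -0.13. The list medians were -0.01 and -0.06.

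The 3 lists of cofactors, of 12 to 15 measured genes each, held 0 genes called by limma, beside 3.47% of all genes with IL-4 and 5.73% with IL-13. At lists of this size a count of 0 is near those shares. In the SIN3 corepressor complex, through which MXD proteins act, 15 genes were measured, with medians of -0.04 and 0.01. Arid4a, of the same complex, had the smallest p with both cytokines, with a difference of -0.24 ± 0.09 (SE; adjusted p from limma = 0.207) with IL-4 and -0.29 ± 0.09 (0.0801) with IL-13, and Ing1 had -0.21 (0.294) and -0.21 (0.243). Among 13 MYC coactivators the smallest p belonged to the elongation factor gene Ccnt1 (-0.16 and -0.12; adjusted p = 0.423 and 0.494), to the acetyltransferase gene Kat2a (-0.16 and 0.06; 0.481 and 0.808) and to Wdr5, whose product anchors MYC on chromatin (-0.11 and -0.12; 0.593 and 0.466). The medians were 0.02 and -0.02. Of 12 genes that set the stability of the MYC protein, Btrc (-0.20; adjusted p = 0.261) and Skp2 (0.27; 0.323) had the smallest p with IL-4 and Huwe1 (0.29; 0.107) and Stub1 (-0.18; 0.231) with IL-13, with list medians of -0.03 and 0.04. Btrc, Skp2, Huwe1 and Stub1 all encode parts of ubiquitin ligases.

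The genes whose pattern was most like that of Mxd1 were found by the root mean square difference over the 12 arrays between log2 signals, each gene centred on its control mean. The 5 nearest of 10452 genes were Rnf19b, which encodes a ubiquitin ligase (0.203), Elf3, an epithelial ETS transcription factor gene (0.208), Shisa2, of a family known from frog embryos to hold back growth factor receptors (0.220), the interleukin gene Il24 (0.224) and Car2, the gene of a cytosolic carbonic anhydrase (0.240). The median over all genes was 1.29. Since this choice used the cytokine response itself, the values are a description with no test. The differences from control were 1.35 and 1.67 for Rnf19b, 1.67 and 1.77 for Elf3, 1.46 and 1.78 for Shisa2, 1.43 and 1.46 for Il24 and 1.71 and 1.76 for Car2, with IL-4 and IL-13 in turn. In each of the 5 all treated arrays lay above all control arrays. The STAT6 form was found in 0 of the promoter entries of Rnf19b, Elf3 and Shisa2, as in that of Mxd1. Il24 and Car2 had no entry matched by symbol. Of the tested genes with an entry only 6.43% hold this form, and nothing is read from its absence.

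**Figure D5:**
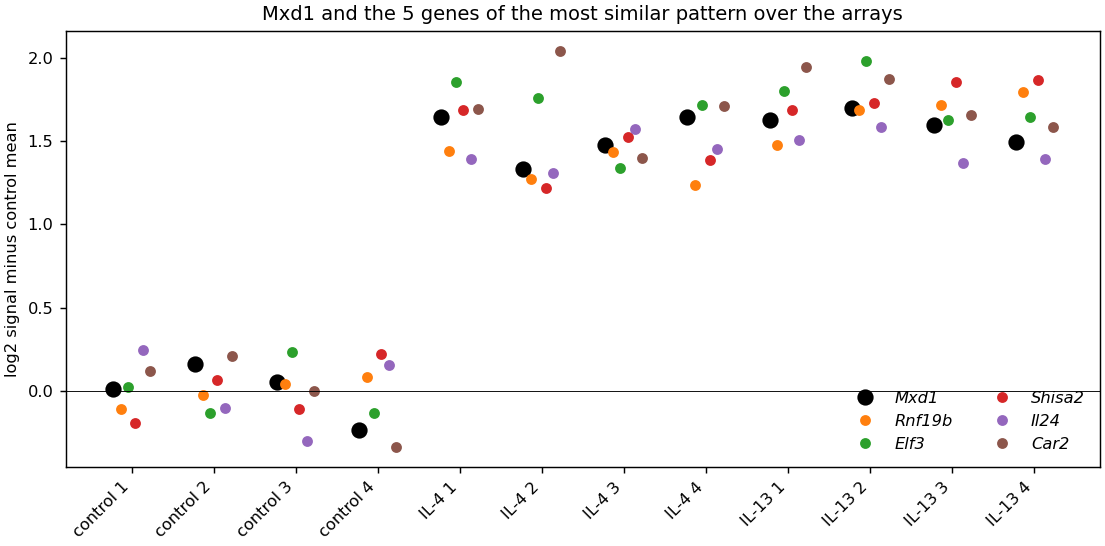
Log2 signal minus the gene's control mean (vertical axis) on each of the 12 arrays for Mxd1 (black) and the 5 genes of most similar pattern. All 6 genes lie near 0 on control arrays and above 1.2 on each treated array.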

How the data were processed

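Per the file headers, the authors deposited 12 arrays of 45281 probes with 1 intensity and 1 detection p-value per probe. The intensity was linear and not scaled between arrays. GenomeStudio 2011.1 was used per the submitters' processing notes, with settings that the sources used here do not state. The second deposited table holds log2 values, which equal the log2 intensity plus a constant per array (2.22 to 2.34) that sets each median to 8.97. Intensities were normalised with neqc (offset 16, common quantiles, log2) in limma 3.58.1 (R 4.3.3). The offset pulls differences of dim probes toward 0. Of 34885 probes with 1 gene symbol, 16680 passed detection, and the probe of highest mean stood for each of 10453 genes. One limma fit over all arrays gave the 3 comparisons, two-sided, with Benjamini-Hochberg adjustment over all genes. A second fit over all passing probes served the further probes. The fit was tested on simulated data. Network genes were all named. Of the lists, changed members were named, or else up to 2 members of smallest p per cytokine. Members, lists and tests were chosen with earlier results of these data known. Alternatives were background, offset, scaling, filter, probe rule, variance model, replicate and chip blocks, single chips and arrays left out.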

Additional observations from a re-analysis of the deposited data

How the results depend on the processing

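The direction of Mxd1 was the same under all 26 alternatives for both cytokines, with log2 differences of 0.67 to 1.97 for IL-4 and 0.75 to 2.06 for IL-13. Its size moved by more than the spread between replicates with no background correction (0.71 and 0.76), an offset of 50 (1.03 and 1.09), the submitters' values (0.67 and 0.75) and an offset of 1 (1.97 and 2.06, chosen after the data were seen). Leaving out single arrays gave 1.45 to 1.59 and 1.53 to 1.66. The count of changed genes with IL-4 was 251 to 442 with single arrays left out, 101 within chip 2, 190 without control 4, IL-4 2 and IL-4 4, whose hemoglobin signal was high, and 204 at an adjusted p of 0.01. With IL-13 it was 409 to 593 with single arrays left out, 243 within chip 1, 186 within chip 2 and 316 at 0.01. Between the cytokines it was 0 to 1 with single arrays left out, 2 with a trended robust variance and 1 within chip 1. Changed members summed over the 11 lists numbered, with IL-4, 3 to 7 with single arrays left out, 2 within chip 1, 1 within chip 2 and 3 without those 3 arrays. With IL-13 they numbered 2 to 5, 2, 2 and 3, and 8 with an offset of 50. The causes of these shifts were not tested. The single chips held fewer arrays, and the counts at 0.01 used a stricter threshold. With the replicate number as a block 358, 600 and 0 genes changed. Among the 7 list genes called with either cytokine the block moved 3 calls with IL-13, Srm (adjusted p = 0.0611) and Ube2c (0.0509) out and Shmt1 (0.0418) in. Same-numbered arrays correlated in their deviations with r between -0.15 and 0.21, over 0.1 in 5 of 12 pairs. In 6 of the 12 pairs the best correlation was with the array of the same number. Nothing states whether the numbers pair the samples, and these correlations cannot decide it. The signal of Max, Mnt and Mlx close to background limits what can be said of them.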
